A study of Mus musculus with 7 samples.

Results

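The endothelin system is a small set of genes for a family of vasoactive peptides, the enzymes that release them and the receptors that read them. Of the 7 genes that were named by symbol (the ligands Edn1, Edn2 and Edn3, the converting enzymes Ece1 and Ece2, and the receptors Ednra and Ednrb), 5 were found among the 12756 genes of the deposited table: the 3 ligands and the 2 enzymes. Ednra and Ednrb were not analysed here. The genes were proposed with earlier results of the same contrast in view, so their differences between the groups are given as a description, and their adjusted p-values serve only to place them among all genes.

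Endothelins are made as long precursors, which are cut by furin-like convertases to an intermediate and then by an endothelin-converting enzyme to the active peptide. The receptor encoded by Ednra, on smooth muscle cells and pericytes, couples to calcium release and constriction, whereas the receptor encoded by Ednrb, on endothelium, releases nitric oxide and, on glia, takes part in the response to injury. In the retina, Edn1 is known as a product of vascular endothelium, and Edn2 as a transcript that injured photoreceptors switch on and that signals to Müller glia.

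The samples were retinas of adult C57BL/6 mice of the genotype Cdh5-CreERT2 Rpl22 tm1.1Psam, which all libraries share: a Cre that tamoxifen activates, driven by the endothelial promoter of Cdh5, leaves Rpl22, a protein of the large ribosomal subunit, tagged with HA. Tagged ribosomes were captured on anti-HA beads and their RNA was read as 3′ end tags (QuantSeq). The 3 control libraries came from mice given control IgG and the 4 others from mice given anti-Dll4, which blocks a Notch ligand of arterial and sprouting endothelium; the labels give neither dose nor time. Nothing in the labels says whether libraries come from separate animals, so SDs and p-values measure the spread between libraries, part of which may be technical. Libraries carry the numbers of their columns in the table; "control IgG 1" is such a column number that no sample title has, and the control title without a column is Control IgG 15.

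Library totals over the genes of the table were 1356192 to 1771086 reads, and 3 reads, the level that a count of 0 allows, correspond to 1.69 to 2.21 CPM (reads scaled to a library total of 1000000). Rod photoreceptor markers were abundant in every library although the label is retinal endothelial cell: their sum over 16 genes was 27777 to 28933 CPM with control IgG and 12656 to 22630 CPM with anti-Dll4. The sum of 21 endothelial markers was 2159 to 3438 CPM with control IgG and 4844 to 6357 CPM with anti-Dll4, so these groups did not overlap either. Of the endothelial markers, Tek, Emcn, Ptprb, Icam2 and Sox17 were at 0 reads in at least 1 library. Positive changes were seen for 17 of 21 endothelial markers (median log2 change 1.60) and 3 of 16 rod markers (median -0.65), against a median of -0.14 over all 10899 genes tested. In a pull-down from a whole retina, fewer cells of a type, less RNA per cell, and a different capture of tagged or carry-over of untagged RNA cannot be told apart.

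Transcripts of 2 of the 3 ligands, Edn1 and Edn2, were at 62.4 to 405 CPM in every anti-Dll4 library. In the control libraries Edn2 was at 1.96 CPM or less, and Edn1 was at 0.652 CPM or less in 2 of 3 and at 18.3 CPM in the other; Ece1 was about 3-fold higher with anti-Dll4. Edn3 and Ece2 varied so much within each group that the groups overlapped. All 5 genes passed the filter of 1 CPM in at least 3 libraries. Edn1 and Edn2 each reached 1 CPM in a single control library, so both passed only through the anti-Dll4 libraries, where they were high. Their place among the genes tested carries that entry. None of them was past an adjusted p of 0.05 in limma over all 10899 genes (0 of 5, against 0.119% of all genes, which were 13 higher and 0 lower). With libraries scaled on endothelial markers, Edn2 passed, among 2 genes higher and 117 lower of 10976 tested. Of the 5, voom on whole reads called only Edn2, among 38 of the 10899 genes (14 higher and 24 lower). At an unadjusted p under 0.05 in limma there were 3 of 5, Edn1, Edn2 and Ece1, all higher (3.68% of all genes were). For those 3 genes every anti-Dll4 library lay above every control library, a pattern held by 3.84% of all genes tested; as the genes were chosen on this contrast, nothing is read from that count.

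**Figure D1:**
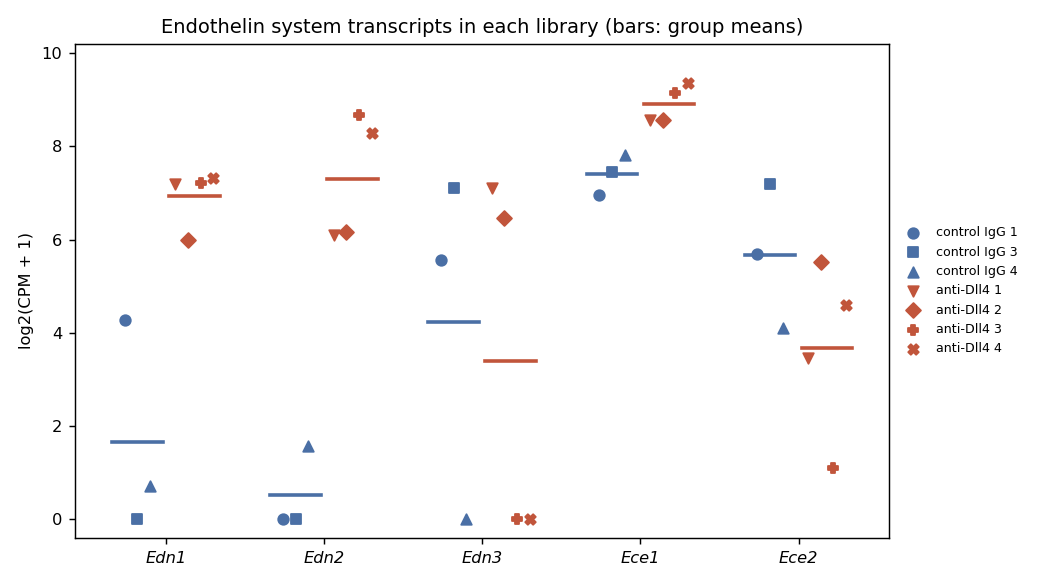
Each point is a library, with log2(CPM + 1) on the vertical axis and the 5 endothelin genes along the horizontal axis. Blue points are the 3 control IgG libraries, red points the 4 anti-Dll4 libraries, and bars are group means. Edn1, Edn2 and Ece1 have all red points above all blue points, while Edn3 runs from 0 to about 7 in each group.

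Edn1 encodes the precursor of endothelin 1, the main vasoconstrictor peptide of endothelium. In the control libraries it was at 18.3 CPM (31 reads) in control IgG 1, at 0 in control IgG 3 and at 0.652 CPM (1 read) in control IgG 4. The anti-Dll4 libraries had 146, 62.4, 148 and 158 CPM in the order of their numbers, from 218, 102, 262 and 280 reads. Most of the control reads thus came from a single library, and the lowest anti-Dll4 library was still above it. The exact 95% intervals of counting error were 12.4 to 26.0 CPM for control IgG 1 and 50.9 to 75.7 CPM for anti-Dll4 2, the closest pair. Means were 6.32 ± 10.4 CPM (SD, n = 3) with control IgG and 129 ± 44.5 CPM (SD, n = 4) with anti-Dll4. The log2 change of CPM + 1 was 5.27 ± 1.32 (limma SE, adjusted p = 0.178), with a 95% interval of 2.52 to 8.01. It ran from 4.43 without control IgG 3 to 6.57 without control IgG 1.

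Edn2 encodes the precursor of endothelin 2, a close relative of endothelin 1 that acts on the same receptors. Control libraries held 0, 0 and 3 reads, that is 0, 0 and 1.96 CPM. The anti-Dll4 libraries held 101, 116, 715 and 551 reads, or 67.6, 70.9, 405 and 311 CPM. The groups lay far apart, and within the anti-Dll4 group libraries 3 and 4 were well above libraries 1 and 2. Means were 0.652 ± 1.13 CPM (SD, n = 3) and 214 ± 171 CPM (SD, n = 4). Because the control group rests on 3 reads in all, the fold is poorly bounded: the pooled CPM were 340-fold apart. The exact interval of 116-fold to 1651-fold covers counting error only and leaves out the spread between libraries. The log2 change of CPM + 1, 6.78 ± 1.37 (limma SE, adjusted p = 0.0538), was the largest positive change among the genes tested, although its size for such a gene depends on the added 1. The adjusted p lay on either side of 0.05 under other settings. It ran from 0.0136, with a mean of at least 5 CPM as the filter, to 0.552 with a replicate block on title numbers. That block compares only libraries 3 and 4 of each group, as the others have no partner, so its p also reflects fewer libraries. The adjusted p was 0.0353 and 0.0322 without control IgG 3 and 4, and 0.433 without anti-Dll4 4.

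Ece1 encodes the membrane metalloprotease that releases active endothelin from its intermediate, and it is made by endothelium and other cells. Control libraries had 123, 174 and 226 CPM and anti-Dll4 libraries 380, 377, 566 and 661 CPM. With 208 to 1171 reads per library it was the most deeply counted member, and its groups were separated by a gap between 226 and 377 CPM. Means were 174 ± 51.7 CPM (SD, n = 3) and 496 ± 141 CPM (SD, n = 4), a ratio of 2.85. The log2 change was 1.50 ± 0.42 (limma SE, adjusted p = 0.299), with a 95% interval of 0.63 to 2.37, and 11.4% of genes tested had a larger positive change.

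Edn3 encodes the precursor of endothelin 3, the ligand that neural crest cells read through the receptor encoded by Ednrb. It had 46.0, 138 and 0 CPM with control IgG and 137, 87.5, 0 and 0 CPM with anti-Dll4. Libraries with 78 or more reads therefore stood beside libraries with none in each group, and no order of the groups can be read. The log2 change was -0.83 ± 2.09 (95% interval -5.18 to 3.51). Its direction turned without control IgG 3 (0.62), without anti-Dll4 3 or without anti-Dll4 4 (0.30 each).

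Such all-or-nothing values were uncommon at this level. Of 1266 genes with a control mean within 0.8 to 1.25 times that of Edn3, 2.84% had a control library at 0. Of 1411 genes with a like anti-Dll4 mean, 12.1% had an anti-Dll4 library at 0, and 1.06% had 2 or more at 0, as Edn3 had. For Edn1, by contrast, 52.7% of 543 genes with a like control mean had a control library at 0, so the lone 0 of Edn1 was usual for its control level.

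Ece2 encodes a related converting enzyme that works at acidic pH and is found mainly in neurons and neuroendocrine cells. Its CPM were 50.7, 145 and 16.3 with control IgG and 10.0, 45.3, 1.13 and 23.1 with anti-Dll4. The anti-Dll4 values tended lower, but libraries 2 and 4 lay above control IgG 4. Means were 70.8 ± 66.8 CPM (SD, n = 3) and 19.9 ± 19.2 CPM (SD, n = 4), and the log2 change was -2.00 ± 1.41 (95% interval -4.94 to 0.95). It ran from -2.77 without control IgG 4 to -1.14 without anti-Dll4 3. Where strand and the counting rule are not given, reads of overlapping genes cannot be told apart: in GENCODE M21 a protein-coding model, Gm49333, overlaps Ece2 on the same strand, and antisense models overlap Edn1 and Ece1.

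**Figure D2:**
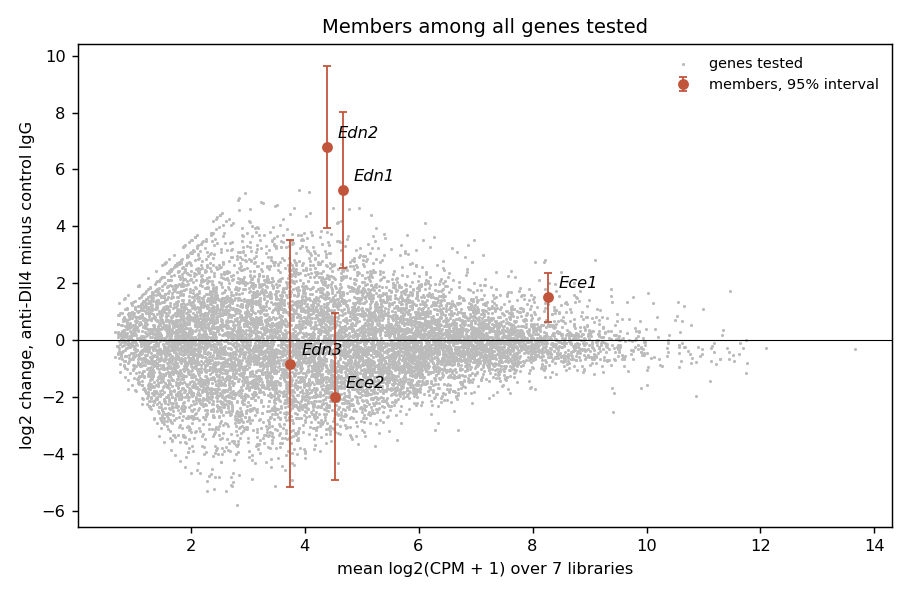
Each grey point is 1 of the 10899 genes tested, with its mean log2(CPM + 1) over 7 libraries on the horizontal axis and the log2 change, anti-Dll4 minus control IgG, on the vertical axis. Red points are the 5 endothelin genes with 95% intervals from limma. Edn2 and Edn1 lie at the upper edge of the cloud (6.78 and 5.27), Ece1 at 1.50 lies among the higher genes of its level, and the intervals of Edn3 and Ece2 include 0.

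The bases just upstream of the annotated starts are shown for the 3 genes whose groups did not overlap, since these are the members whose transcript levels were higher together. Sequences are the 250 bases before each start in RefSeq (GRCm38.p6, plus strand, matched by symbol; all 5 genes matched), with capitals for any match to the 4 motifs searched on both strands. The motif TGGGAA is the core read by RBPJ, the DNA-binding partner of Notch receptors. The motif GATA is read by the factors of that name, of which endothelium makes Gata2. The motif TGANTCA is read by AP-1, the dimer of Jun and Fos proteins. The motif ACGTG is the core of the hypoxia response element. Ece1 has 4 annotated starts, and 3′ end tags do not tell which was used; the first is shown.
Edn1, chr13:42301226-42301475: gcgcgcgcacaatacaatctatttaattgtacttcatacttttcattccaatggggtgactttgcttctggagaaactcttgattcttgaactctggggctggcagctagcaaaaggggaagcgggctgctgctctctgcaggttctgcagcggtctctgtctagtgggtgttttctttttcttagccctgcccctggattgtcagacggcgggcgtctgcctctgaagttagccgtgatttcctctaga
Edn2, chr4:120160956-120161205: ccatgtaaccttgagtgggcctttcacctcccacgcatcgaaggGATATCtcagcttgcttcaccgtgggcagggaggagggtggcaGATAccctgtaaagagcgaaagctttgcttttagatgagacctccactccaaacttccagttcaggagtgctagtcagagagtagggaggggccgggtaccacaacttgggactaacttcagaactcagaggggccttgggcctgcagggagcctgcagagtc
Ece1, chr4:137861987-137862236: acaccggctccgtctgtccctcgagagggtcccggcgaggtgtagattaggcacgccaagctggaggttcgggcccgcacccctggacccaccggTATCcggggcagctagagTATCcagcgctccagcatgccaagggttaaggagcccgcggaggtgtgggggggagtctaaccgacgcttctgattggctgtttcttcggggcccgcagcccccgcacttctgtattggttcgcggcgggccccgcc
The Edn1 window held none of the 4 motifs. The Edn2 window held GATA on the plus strand at -206 to -203 and -163 to -160 and on the minus strand at -204 to -201, where position -1 is the base before the start and the first and last of these overlap. The Ece1 window shown held GATA on the minus strand at -155 to -152 and -137 to -134. The second Ece1 window overlaps the first and held the same 2 matches, the third held ACGTG on each strand (-90 to -86 and -89 to -85), and the fourth held TGGGAA at -229 to -224 and GATA at -32 to -29, each on the minus strand. Among 32851 RefSeq windows of the same length, 53.6% held the GATA motif, 21.6% that of RBPJ, 16.6% that of the hypoxia response element and 6.75% that of AP-1. A match is a string of letters and does not show that a factor binds there.

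The sum of the endothelial markers was higher in the same 4 libraries, so the members were also expressed per 1000 CPM of that sum. The sum does not stand for every marker. Groups did not overlap for Cldn5, Egfl7, Eng, Esam, Ly6c1 and Rasip1 (6 of 21), all higher with anti-Dll4, a pattern held by 3.84% of all genes tested. These 6 held 37.9% to 47.1% of the sum with control IgG and 55.1% to 66.5% with anti-Dll4. The other 15 summed to 1340 to 1818 CPM with control IgG and 1623 to 2344 CPM with anti-Dll4, with overlap. As the 6 were picked on these same groups, nothing is read from that overlap. The changes of Kdr (-0.46 ± 0.47), Flt1 (-0.38 ± 0.41), Ptprb and Sox17 were negative, and those of the other 17 of the 21 markers were positive. On that scale Edn1 was at 8.25, 0 and 0.302 with control IgG and 28.0, 12.9, 23.3 and 29.3 with anti-Dll4, and the groups remained apart. Edn2 was at 0, 0 and 0.906 with control IgG and 13.0, 14.6, 63.7 and 57.7 with anti-Dll4, again without overlap. Ece1 was at 55.4, 50.6 and 105 with control IgG and 72.7, 77.9, 89.0 and 123 with anti-Dll4. Control IgG 4 thus lay above 3 of the 4 anti-Dll4 libraries, and the groups overlapped. Other sets of markers were not tried for this scale. With libraries scaled on the endothelial markers before the fit, which shifted the median over all genes tested from -0.14 to -1.06 on the log2 scale, the log2 changes were 4.40 ± 1.39 for Edn1, 6.11 ± 1.46 for Edn2 and 0.41 ± 0.48 for Ece1 (limma SE). The adjusted p was 0.107, 0.0415 and 0.664 in that order.

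**Figure D3:**
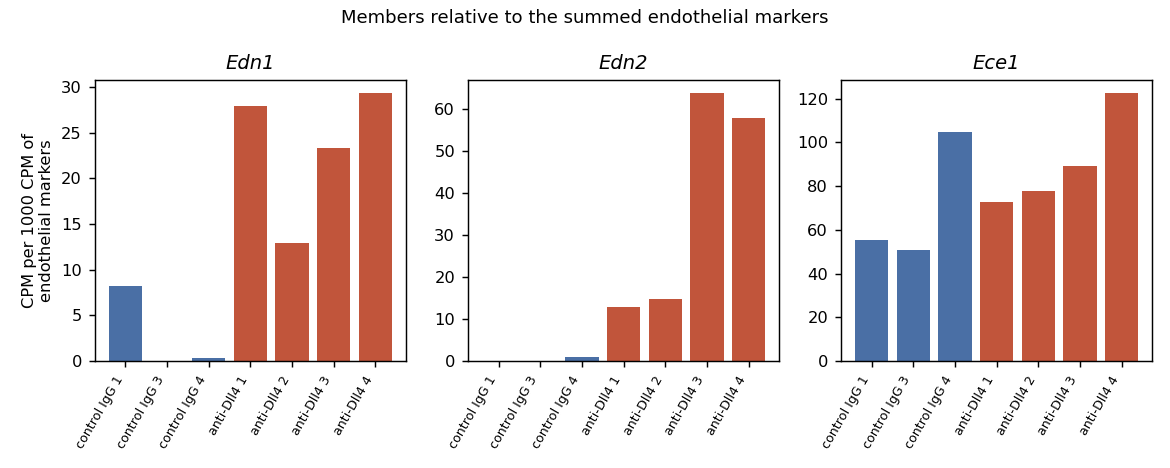
Bars give the CPM of Edn1, Edn2 and Ece1 in each library per 1000 CPM summed over 21 endothelial markers, with control IgG libraries in blue and anti-Dll4 libraries in red. Each panel has its own vertical axis, which starts at 0. The red bars exceed all blue bars for Edn1 (12.9 to 29.3 against at most 8.25) and Edn2, but not for Ece1.

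By a rule based on values alone, the genes closest to each of these 3 in pattern were named: the smallest root-mean-square difference of log2(CPM + 1), centred on each gene's mean, over the 7 libraries and among 7502 genes with a mean of at least 3. Closest to Edn1 was Procr, the endothelial protein C receptor, at a difference of 0.67 log2 units, with 13.6, 0 and 0.652 CPM with control IgG and 32.8, 39.8, 94.6 and 130 CPM with anti-Dll4. It was followed by Ramp2, the partner of the adrenomedullin receptor (0.97), Bad, a cell death gene of the Bcl2 family (0.97), Dnah7a, an axonemal dynein (0.98), and Atf7ip, a chromatin factor (1.01). Closest to Edn2 were Itpripl2 (1.12), Dnah7a (1.34), Fkbp10, a chaperone of collagen folding (1.38), the transcription factor Ets2 (1.67) and the kinase gene Map3k3 (1.69). Edn1 stood at rank 9 among genes closest to Edn2 (1.80), and Edn2 at rank 87 among those closest to Edn1. Closest to Ece1 were Arl8a, a lysosomal GTPase (0.17), Rab7, a late endosome GTPase (0.18), the spliceosome gene Snrpd1, Ptma and Rpain (0.24 to 0.25). The groups differ in treatment and in their endothelial and rod marker sums alike, and a small difference describes these 7 libraries only.

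Other genes of the pathway were taken from 5 lists, 93 genes in all, of which 63 were tested. None passed the adjusted threshold in limma (0 higher and 0 lower) or in voom (0), while 11 higher and 2 lower had an unadjusted p under 0.05 (3.68% and 3.41% of all genes tested). Their median log2 change was 0.75, with 44 positive and 19 negative values, against -0.14 for all genes tested. With libraries scaled on endothelial markers, which lowers all changes, 26 of 64 were positive and the median was -0.14, against -1.06 for all genes. Every anti-Dll4 library lay above every control library for 8 of the 63, and below for 2, against 3.84% and 3.75% of all genes tested. The lists, too, were chosen with earlier results of these data known. Nothing is therefore read from these counts or from those of the single lists below.

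Genes that process or clear endothelins numbered 5 tested of 10, with 4 positive changes and a median of 0.31 (1 positive and -0.78 with libraries scaled on endothelial markers). Pcsk6, a proprotein convertase of the furin family, had 5.31, 53.1 and 56.7 CPM with control IgG and 2.01, 1.22, 0.566 and 0.565 CPM with anti-Dll4. The groups did not overlap, and the log2 change was -3.75 ± 1.57 (limma adjusted p = 0.688). The anti-Dll4 values were 3, 2, 1 and 1 reads, no more than a count of 0 allows, and control IgG 1 had 9 reads. The size of the change is therefore poorly bounded. Ecel1, an enzyme resembling the endothelin-converting enzymes and known from neurons, had 0 reads in each control library and 23, 36, 0 and 109 reads in the anti-Dll4 libraries.

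Signalling genes downstream of the receptors numbered 25 tested of 27, with 16 positive changes and a median of 0.94 (11 positive and -0.15 with that scaling). Gnai2, an inhibitory G protein subunit, had 130, 111 and 116 CPM with control IgG and 322, 361, 465 and 558 CPM with anti-Dll4. Its log2 change was 1.80 ± 0.44 (limma adjusted p = 0.158), with control libraries close to each other and far below the rest. Gnas, the stimulatory subunit, had 45.4, 136 and 93.2 CPM with control IgG and 236, 354, 139 and 357 CPM with anti-Dll4, so that anti-Dll4 3 barely exceeded control IgG 3 (1.59 ± 0.57, adjusted p = 0.529).

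Transcription factors and cofactors known to act on Edn1 were all tested (13 of 13), with 7 positive and 6 negative changes and a median of 0.04 (3, 10 and -1.03 with that scaling). Vezf1, an endothelial zinc finger factor that binds the Edn1 promoter, was at 139, 120 and 149 CPM with control IgG and 259, 387, 239 and 198 CPM with anti-Dll4 (log2 change 0.95 ± 0.48, limma adjusted p = 0.706). Foxo1 had a change of 2.16 ± 1.13 (adjusted p = 0.711), with a single control library at 1.47 CPM and overlapping groups.

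Of 27 other vasoactive genes, 11 were tested, with 8 positive changes and a median of 0.69 (5 positive and -0.05 with that scaling). Adm, the precursor of the vasodilator adrenomedullin, had 0, 10.3 and 0 CPM with control IgG and 63.6, 41.6, 84.4 and 41.8 CPM with anti-Dll4. Ramp2, the receptor partner of that peptide, had 25.4, 4.42 and 2.61 CPM with control IgG and 83.0, 116, 166 and 136 CPM with anti-Dll4. In each the groups lay apart, with log2 changes of 4.65 ± 1.58 and 3.93 ± 1.05 (limma adjusted p = 0.482 and 0.249).

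Genes of the retinal response to injury, in which Edn2 is known to take part, numbered 9 tested of 16, and all 9 changes were positive with a median of 1.35 (6 of 10 positive, median 0.23, with libraries scaled on endothelial markers), where 45.5% of all genes tested had a positive change. Among the 5 genes in the table that were below the filter, Cntf (36, 1 and 0 reads with control IgG and 0, 0, 0 and 1 with anti-Dll4) and Il6st (0, 53 and 1 against 24, 0, 1 and 1) had a lower mean CPM with anti-Dll4. Some positive changes rested on 1 or 2 libraries, as for A2m, with 66 of its anti-Dll4 reads in anti-Dll4 4 and 0, 1 and 2 in the others. Their summed level over the 14 genes in the table was 264, 117 and 215 CPM with control IgG and 482, 486, 1314 and 1143 CPM with anti-Dll4. The groups did not overlap, and anti-Dll4 3 and 4 were the highest, as they were for Edn2. The metallothioneins Mt1 and Mt2 made up 44.3% to 56.8% of that sum with anti-Dll4, and without them it was 108 to 164 CPM with control IgG and 208, 271, 633 and 590 CPM with anti-Dll4. Mt2 had 84.4, 3.69 and 74.9 CPM with control IgG and 246, 213, 675 and 451 CPM with anti-Dll4 (log2 change 3.52 ± 0.82, limma adjusted p = 0.130). Stat3, a transcription factor of cytokine signalling, had 52.5, 14.7 and 31.9 CPM with control IgG and 81.0, 108, 250 and 131 CPM with anti-Dll4 (2.11 ± 0.78, limma adjusted p = 0.593). Rod markers were lower in the same libraries, at 22630, 20314, 12656 and 16797 CPM; their part in the result was not tested.

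**Figure D4:**
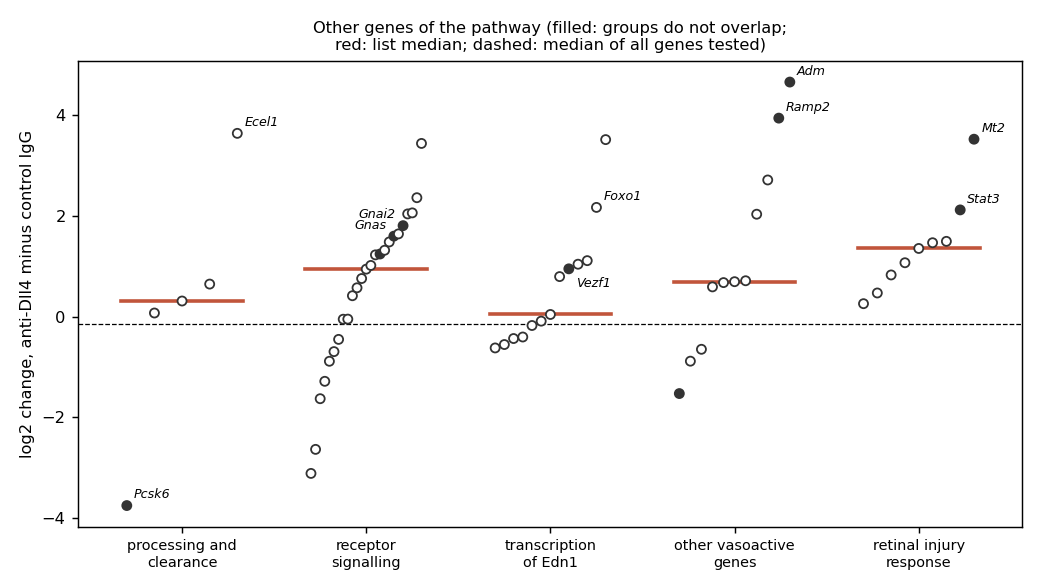
Points are the tested genes of 5 lists around the endothelin system, ordered within each list by their log2 change, anti-Dll4 minus control IgG (vertical axis). Filled points are genes whose groups do not overlap, red lines are list medians (0.31, 0.94, 0.04, 0.69 and 1.35 from left to right; 0.23 for the last and below 0 for the others with libraries scaled on endothelial markers), and the dashed line is the median of all genes tested at -0.14. Labels mark the genes named in the text.

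The cells that carry the receptors were followed by their markers. Markers of pericytes and smooth muscle, where Ednra is known, summed to 153 to 241 CPM with control IgG and 130 to 495 CPM with anti-Dll4 over 8 genes, with overlapping groups; Pdgfrb, Kcnj8, Notch3 and Acta2 were at 0 reads in at least 1 library. Markers of Müller glia, where Ednrb is known, summed to 1412 to 2634 CPM with control IgG and 1210 to 2359 CPM with anti-Dll4 over 9 genes, again with overlap, and Kcnj10 and Sox9 were at 0 reads in at least 1 library. None of the tested members of these lists passed in limma or voom (0 of 7 and 0 of 9), where 0.119% of all genes passed in limma and 38 of 10899 in voom. Of each list, 0 had an unadjusted p under 0.05 in limma, against 3.68% (higher) and 3.41% (lower) of all genes. With so few genes, nothing is read from these counts. Of 5 markers of astrocytes, another glial type, only Gfap and S100b were in the table. S100b had 0, 87 and 48 reads with control IgG and 0, 0, 0 and 2 with anti-Dll4. Its log2 change was -3.41 ± 1.39 (limma unadjusted p = 0.0233, adjusted p = 0.673). Gfap was below the filter, with 0 reads in each control library and 0, 0, 9 and 7 with anti-Dll4.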

How the data were processed

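The deposited values are log10 of CPM plus 1, as the authors scaled them: turned back, each of the 7 libraries summed to 1000000 CPM, and 100% of values were whole multiples of a single read's CPM (tolerance 1e-06), which gave whole reads. The submitters' processing notes name TopHat2, cutadapt and bedtools, and hg19 as the build, although the symbols are mouse symbols; for the annotation, the counting rule and strand, the sources used here say nothing. No molecular identifiers are named, so intervals and floors cover counting error only. Each listed gene had at least 10 reads in all. The column called control IgG 1 has no title of that number (the title left over is Control IgG 15) and was used as an unnumbered control library.

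The log2(CPM + 1) scale used here understates changes of low genes. Genes that reached 1 CPM in 3 or more libraries entered limma 3.58.1 in R 4.3.3 (treatment as the only term, mean-variance trend, two-sided, Benjamini-Hochberg over all genes tested), after a check on simulated data. The design had expected log CPM of unstated base, and its test was kept. Exact 95% binomial (Clopper-Pearson) intervals came from scipy 1.17.1. The members and lists were chosen with earlier results of these data known. Named are all members, from each pathway list genes past the threshold or otherwise the 2 with the smallest p, and the 5 nearest patterns; no pattern was sought for Ednrb. Other names were chosen after their values were seen. Proteins were not printed.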

Additional observations from a re-analysis of the deposited data

Results flagged for a closer look

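In the anti-Dll4 group, Edn1 in anti-Dll4 2 (62.4 CPM) lay far below the other libraries (146 to 158 CPM): the gap was 0.873 of the group's range, above Dixon's 95% critical value for 4 libraries. By chance about 1 group in 20 is picked out this way, and 5 genes were examined.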

How the results depend on the processing

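Over 17 alternatives, the log2 changes of Edn1, Edn2 and Ece1 stayed positive and that of Ece2 negative, and Edn1, Ece1, Edn3 and Ece2 passed the threshold in none. Edn2 passed with no filter (6.78), a mean of at least 5 CPM (6.78), voom (8.04), median-of-ratios scaling (6.81) and endothelial marker scaling (6.11). With a library left out, Edn2 ran from 6.33 to 7.31, passing without control IgG 3 or 4, and Edn3 from -2.94 to 0.62, turning its direction in 3 of 7 fits. The count of genes past the threshold, 13, became 32 with a mean of at least 5 CPM (27 higher, 5 lower), 0 without the trend, 38 with voom (14 and 24) and 119 with endothelial marker scaling (2 and 117). It ran from 3 (without control IgG 1 or anti-Dll4 4) to 22 (without control IgG 3), and was 6 without anti-Dll4 1 or 2. A replicate block on title numbers gave 3 genes, and on column numbers, chosen after seeing the data, 4. No member passed with either block (Edn2 7.69 and 7.16). The title block compares only libraries 3 and 4 of each group, and the column block leaves anti-Dll4 2 out of the difference. Deviations of same-numbered libraries correlated at 0.05 to 0.07, so the numbers were not taken as pairs, though each control library correlated best with its own column number. The cause of these differences was not tested. Edn1 and Edn2 rest on few control reads (32 and 3 in all), which leaves the size of their folds poorly bounded. The depth does not separate levels below 1.69 to 2.21 CPM from 0.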

Other observations

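Libraries anti-Dll4 3 and 4 stood apart from anti-Dll4 1 and 2 in several genes around the endothelin system, which were picked out after their values were seen and were not tested. They had the higher Edn2 (405 and 311 CPM against 67.6 and 70.9) and Ece1 values (566 and 661 CPM against 380 and 377), and 0 reads of Edn3 against 204 and 143. Osmr, the oncostatin M receptor, had 0 reads in the 3 control libraries and in anti-Dll4 1 and 2, and 112 and 65 reads in anti-Dll4 3 and 4. Socs3, a feedback inhibitor of cytokine signalling, had 1, 4 and 5 reads in control and 1, 2, 80 and 33 reads in anti-Dll4 libraries. Gfap, the intermediate filament of reactive glia, had 9 and 7 reads in anti-Dll4 3 and 4 and 0 in the other 5 libraries. Of the 14 genes of the injury list in the table, 7 had both of these libraries above anti-Dll4 1 and 2 (Osmr, Stat3, Socs3, Gfap, Cp, Mt2 and A2m) and 7 did not (Lif, Lifr, Il6st, Cntf, Cebpd, Mt1 and Bcl3), where 17.5% of all genes tested had that order. A2m had it on 2 reads in anti-Dll4 3 against 1 in anti-Dll4 2, too few to tell from 0. Osmr, Gfap, Lif, Il6st and Cntf were below the filter and so not among the genes tested. As the split was picked from these libraries, nothing is read from that count. Rod markers were lowest in the same pair (12656 and 16797 CPM). Edn1 did not follow this split, with 146 and 62.4 CPM in anti-Dll4 1 and 2 and 148 and 158 CPM in anti-Dll4 3 and 4.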
